A study of Homo sapiens with 12 samples.

Results

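Cells build cholesterol and fatty acids from acetyl-CoA along linked pathways, and 36 genes of these pathways were followed here, chosen by name as the controllers of sterol sensing and the enzymes of sterol and fatty acid synthesis. All 36 are among the 13951 genes listed, and each had at least 1 CPM (the read count scaled to a common library size) in every one of the 12 libraries. By role they comprise 6 genes of regulation and sterol transport, 8 enzymes from acetyl-CoA to farnesyl diphosphate, 11 enzymes from squalene to cholesterol and 11 genes of fatty acid synthesis, desaturation and activation. RNA was sequenced from CWR22Rv1, an established human prostate carcinoma line derived from a xenograft that relapsed after castration, in 4 groups of 3 replicates. Control cells expressed exogenous Cas9 without a guide RNA, and LV-MEIS1 cells carried lentiviral MEIS1. In cells labelled HOXB13ko the HOXB13 gene had been targeted with CRISPR, and cells labelled HOXB13ko-LV-MEIS1 carried lentiviral MEIS1 on that background (the doubly labelled cells below). All groups were grown for 48 h in serum-containing RPMI with puromycin. By the study's methods the knockout line is a pool of 6 clones, and the labels do not say whether LV-MEIS1 cells carry Cas9. Nor do they say that replicates are separate cultures, so p-values measure the spread between these samples, which may be technical.

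The synthesis genes are controlled together by the SREBP transcription factors. Their precursors sit in the endoplasmic reticulum bound to the escort SCAP, where INSIG proteins retain them while sterols are plentiful. When sterols fall, the complex moves to the Golgi and proteases release the active factor, and in prostate cancer cells the pathway is also known to respond to androgens.

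MEIS1 and HOXB13 mRNA were read first as a check of the labels. MEIS1 averaged 4.25 ± 0.202 CPM in Control (SD, n = 3), 47.4 ± 1.96 in LV-MEIS1, 3.56 ± 0.118 in the HOXB13ko-labelled and 29.7 ± 0.365 in the doubly labelled libraries, and it was lower in the last than in LV-MEIS1 (log2 difference -0.66 ± 0.075, SE; limma eBayes adjusted p = 4.35e-06). HOXB13 averaged 196 ± 17.1 CPM in Control, 151 ± 0.770 in LV-MEIS1, 327 ± 20.1 in the HOXB13ko-labelled and 354 ± 25.1 in the doubly labelled libraries. The targeted mRNA was thus higher, not lower, in libraries labelled as knockout, and every direction drawn from them below is a direction between labels. The study's methods report successful knockout of HOXB13 by western blot of the protein, with each of the 6 clones checked in that way. Protein is not measured by these mRNA values. All 8 luminal epithelial markers are listed, with a summed level between 2486 and 2679.6 CPM. None of the 9 leukocyte, endothelial and adipocyte markers is listed, and 2 of 5 fibroblast markers are (COL1A1 and PDGFRB), summing to 14.6 to 17.9 CPM in Control, 30.2 to 34.9 in LV-MEIS1 and 16.2 to 20.8 in the other groups. COL1A1 was 13.6 to 15.7 CPM in Control, 30.0 to 34.6 in LV-MEIS1, 17.9 to 19.5 in the HOXB13ko-labelled and 15.0 to 17.5 in the doubly labelled libraries, and PDGFRB averaged 1.41 ± 0.618, 0.266 ± 0.0734, 1.24 ± 0.0697 and 1.39 ± 0.181 in the same order, so that in LV-MEIS1 the first was higher and the second lower than in the other groups. The part of these fibroblast genes in the results was not tested. In bulk RNA, fewer cells with a transcript and less of it per cell cannot be told apart.

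Promoter windows are shown for members that differed most between the groups, with SREBF2 for comparison, so that the boxes SREBP factors are known to work with can be set beside the values. They run from 250 bases before to 50 bases after an annotated RefSeq start (GRCh38.p14), lie on the plus strand and are written 5′ to 3′ in lower case, with capitals for NF-Y boxes (CCAAT, on either strand) and for the SREBP site (TCACNCCAC, either strand). SCD is at chr10:100346983-100347282, INSIG1 at chr7:155297628-155297927, FADS2 at chr11:61816154-61816453 and SREBF2 at chr22:41832855-41833154.
SCD: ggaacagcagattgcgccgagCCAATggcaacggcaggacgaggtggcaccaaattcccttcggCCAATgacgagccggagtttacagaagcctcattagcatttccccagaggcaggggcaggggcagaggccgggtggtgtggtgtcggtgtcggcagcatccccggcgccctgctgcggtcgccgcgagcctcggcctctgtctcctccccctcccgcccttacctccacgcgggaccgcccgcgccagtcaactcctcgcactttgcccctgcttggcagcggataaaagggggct
INSIG1: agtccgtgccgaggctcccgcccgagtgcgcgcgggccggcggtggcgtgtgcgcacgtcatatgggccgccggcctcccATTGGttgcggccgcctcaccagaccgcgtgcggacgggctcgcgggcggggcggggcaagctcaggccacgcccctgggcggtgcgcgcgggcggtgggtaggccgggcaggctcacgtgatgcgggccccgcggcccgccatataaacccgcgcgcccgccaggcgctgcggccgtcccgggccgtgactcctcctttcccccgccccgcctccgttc
FADS2: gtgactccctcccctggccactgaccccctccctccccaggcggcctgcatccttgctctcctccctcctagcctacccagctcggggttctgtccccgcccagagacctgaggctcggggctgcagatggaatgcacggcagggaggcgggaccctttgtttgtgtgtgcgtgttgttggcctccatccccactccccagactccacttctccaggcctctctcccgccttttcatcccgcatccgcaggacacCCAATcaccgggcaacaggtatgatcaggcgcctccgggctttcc
SREBF2: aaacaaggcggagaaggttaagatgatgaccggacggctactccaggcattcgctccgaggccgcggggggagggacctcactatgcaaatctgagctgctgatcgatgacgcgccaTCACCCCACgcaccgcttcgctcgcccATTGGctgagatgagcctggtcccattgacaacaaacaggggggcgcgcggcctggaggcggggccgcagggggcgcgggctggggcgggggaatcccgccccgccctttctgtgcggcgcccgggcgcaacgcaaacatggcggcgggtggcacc

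Windows were found for 32 of the 36 members. SREBF2 was the only member with the SREBP site as spelled here, 133 bases before the start with an NF-Y box 106 bases before it, while 1.52% of the 10646 listed genes with a window had that site. NF-Y boxes were found for 24 of the 32 members (75%, against 43.2% of listed genes) and SP1 boxes (GGGCGG, both strands) for 30 (93.75%, against 76.4%). The E-box CACGTG, on both strands, was found for 5 members (15.6%, against 12.6%), INSIG1 among them. SCD held 2 NF-Y boxes, INSIG1 held 1, and of 2 windows for FADS2 the printed one held 1 and the other none. The boxes of SCD began 229 and 186 bases before the start and that of INSIG1 170 before it. The FADS2 box began 5 bases after the start used, which lies inside the gene span given below and not at its edge. Each motif was counted regardless of the others. These are letter matches and were not tested as binding sites.

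Mean levels over the 12 libraries ran from 7.54 CPM for INSIG2 to 1581 CPM for FASN, and since CPM takes no account of transcript length, levels are compared between groups and not between genes. The coefficient of variation within a group had a median of 4.87% and was highest for INSIG2 in Control, at 17.5%. Together the members took 0.793% ± 0.0338 of the listed CPM in Control (SD, n = 3), 0.916% ± 0.0101 in LV-MEIS1, 0.902% ± 0.0215 in the HOXB13ko-labelled and 0.905% ± 0.0276 in the doubly labelled libraries, and every library of the last 3 groups lay above every Control library. Without SCD the shares were 0.717% ± 0.0323, 0.743% ± 0.0103, 0.812% ± 0.0201 and 0.805% ± 0.0266. Control and LV-MEIS1 libraries then overlapped, and both groups with the HOXB13ko label lay above them. Control replicate 2 was the highest of its group for 22 of the 36 members (all genes, 39.8%), replicate 3 of the doubly labelled libraries for 23 (all genes, 35.5%) and HOXB13ko-labelled replicate 1 for 20 (all genes, 38.7%).

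**Figure D1:**
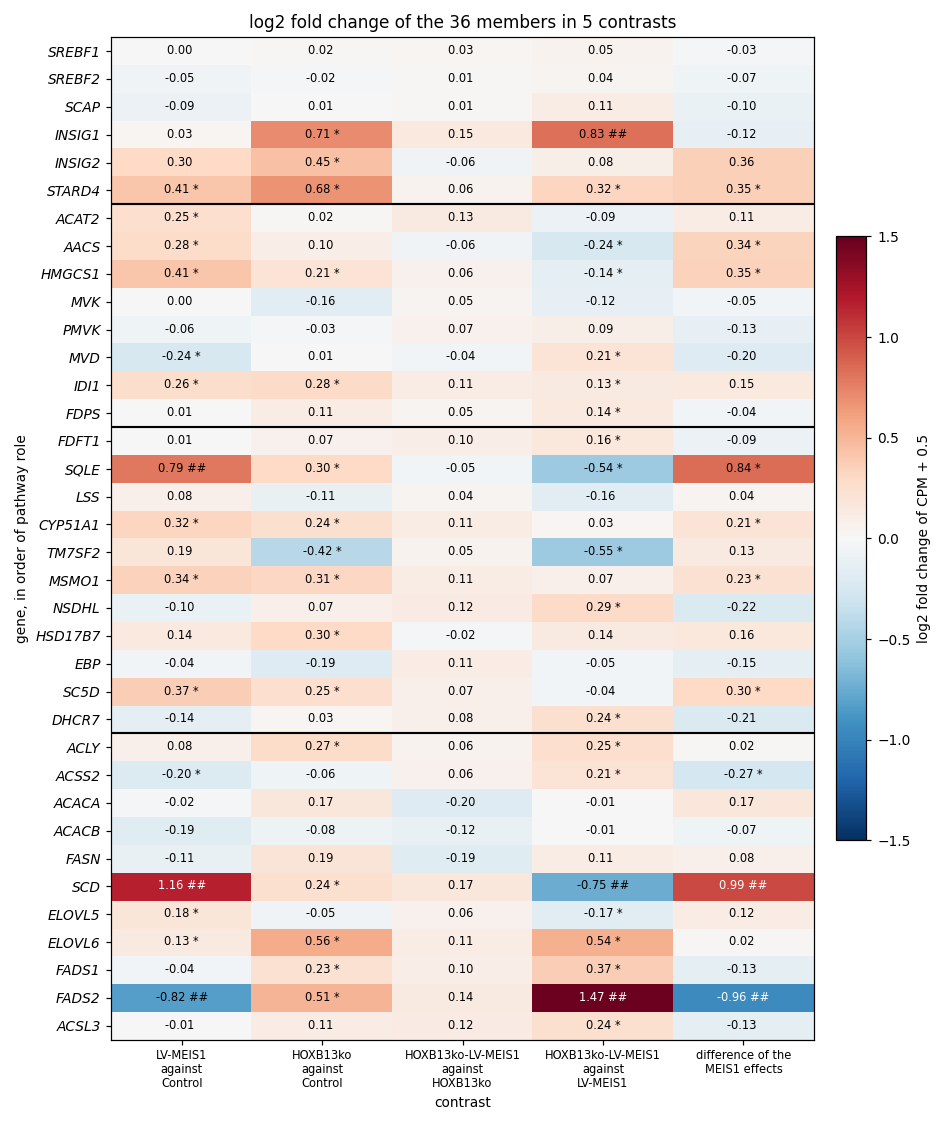
Log2 fold change of CPM + 0.5 for the 36 members (rows, ordered by pathway role) in 5 contrasts (columns), red for higher and blue for lower. A star marks a limma eBayes adjusted p under 0.05 and ## a limma treat adjusted p under 0.05 against a 1.5-fold change; SCD, SQLE and FADS2 carry ## in LV-MEIS1 against Control, and no member carries a mark in HOXB13ko-LV-MEIS1 against HOXB13ko.

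LV-MEIS1 against Control asks which synthesis genes differ with exogenous MEIS1 in cells that were not edited at HOXB13. Here the desaturase SCD and the squalene epoxidase SQLE were higher, the desaturase FADS2 was lower, and 10 further enzymes or carriers were higher by smaller steps. Limma treat, a test against a 1.5-fold change with adjusted p under 0.05 over all genes, called SCD, SQLE and FADS2, 3 of 36 members, where 3.99% of all genes were called. Limma eBayes, a test against no change, found 12 members that rose and 3 that fell, where 23.2% of all genes rose and 21.3% fell. By role, 1 of 6 genes of regulation and sterol transport rose, the carrier STARD4. So did 4 of 8 enzymes up to farnesyl diphosphate, 4 of 11 from squalene to cholesterol and 3 of 11 fatty acid genes. The median log2 fold change was 0.14 over the 19 sterol enzymes and -0.023 over the fatty acid genes, beside 0.0073 over all genes. With each library left out in turn, 12 of the 15 eBayes calls held, and those of ACSS2, ELOVL6 and MVD did not (the libraries are given with each gene).

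HOXB13ko against Control compares the HOXB13ko-labelled libraries with unedited cells. INSIG1, which retains the SREBP complex, the cholesterol carrier STARD4 and the elongase ELOVL6 led a set of smaller rises, and the sterol reductase TM7SF2 was lower. Treat called 0 of 36 members, where 1.41% of all genes were called. At an unadjusted p under 0.05 limma treat passed 1 member and eBayes 19, where they passed 378 and 6186 of the 13951 genes. After adjustment 15 members rose by eBayes and 1 fell, where 16.5% of all genes rose and 16.4% fell. The risers were 3 of 6 genes of regulation and sterol transport (INSIG1, INSIG2 and STARD4). They also included 2 of 8 early and 5 of 11 late sterol enzymes and 5 of 11 fatty acid genes. The median log2 fold change was 0.074 over the sterol enzymes and 0.19 over the fatty acid genes, beside -0.0017 over all genes. The sterol median ran from 0.039 without Control replicate 1 to 0.11 without HOXB13ko replicate 3. With each library left out, 13 of the 16 calls held. Without Control replicate 2 those of INSIG2, SC5D and HSD17B7 were lost (adjusted p = 0.0652, 0.0565 and 0.0725), as were INSIG2 and SC5D without HOXB13ko replicate 3 (0.0536 and 0.0526) and HSD17B7 without HOXB13ko replicate 2 (0.0742). Both comparisons use the same Control libraries, so their values are not independent.

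**Figure D2:**
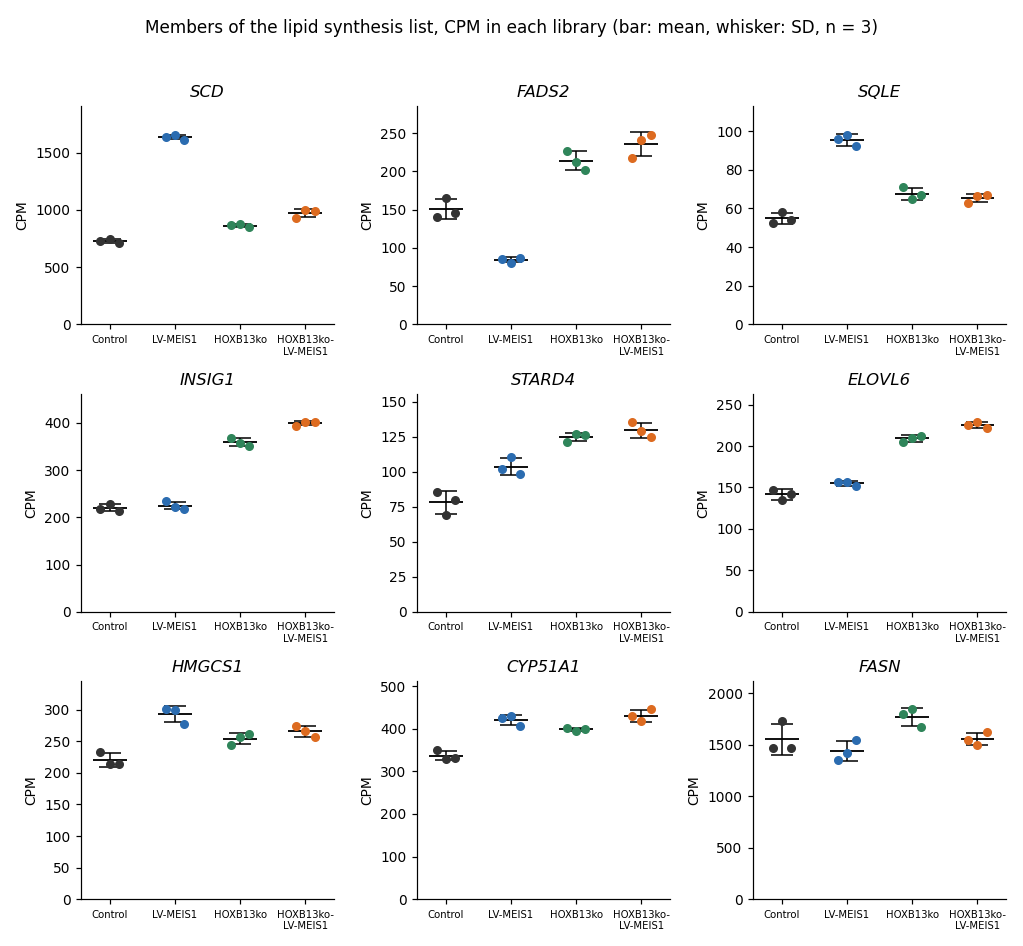
CPM of single members (y axes, from 0) in each library by group (x axes), with points for the 3 replicates, horizontal bars for the mean and whiskers for the SD. SCD and SQLE are highest in LV-MEIS1, FADS2 is lowest there, and INSIG1 and STARD4 are higher in both groups with the HOXB13ko label than in Control.

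Among the regulators, INSIG1 (GRCh38 chromosome 7, 155297776 to 155310235, plus strand) followed the HOXB13ko label. It was 218, 228 and 214 CPM in Control, 234, 222 and 219 in LV-MEIS1, 369, 358 and 351 in the HOXB13ko-labelled and 394, 401 and 402 in the doubly labelled libraries. Control and LV-MEIS1 overlapped, the HOXB13ko-labelled libraries lay above both, and the doubly labelled libraries lay above those. The log2 fold change with the label was 0.71 ± 0.045 without exogenous MEIS1, or 1.63-fold (eBayes adjusted p = 5.94e-08, treat 0.413), and 0.83 ± 0.045 with it, or 1.77-fold (treat adjusted p = 0.00106). Here and below, folds are ratios of the group mean CPM and can differ from the fitted log2 values. In LV-MEIS1 against Control INSIG1 gave 0.031, with a 95% interval from -0.064 to 0.13. Its paralog INSIG2 was 6.34, 4.93 and 7.02 CPM in Control and 8.24, 8.06 and 8.91 in the HOXB13ko-labelled libraries (0.45 ± 0.12, eBayes adjusted p = 0.0124), a call lost without the libraries named above.

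STARD4, which carries cholesterol between membranes, was 85.4, 68.9 and 80.1 CPM in Control, 102, 111 and 98.5 in LV-MEIS1, 121, 127 and 126 in the HOXB13ko-labelled and 135, 129 and 125 in the doubly labelled libraries. LV-MEIS1 lay above Control, and both groups with the knockout label, which overlapped each other, lay above LV-MEIS1. It rose by 0.41 ± 0.071 on the log2 scale in LV-MEIS1 and by 0.68 ± 0.071 with the label (eBayes adjusted p = 0.000314 and 8.18e-06). The SREBP genes themselves passed no test in any contrast. SREBF1, whose product mainly drives fatty acid genes, was 272, 335 and 284 CPM in Control, 292, 279 and 319.7 in LV-MEIS1, 324, 303 and 274 in the HOXB13ko-labelled and 289, 307 and 325 in the doubly labelled libraries. SREBF2, whose product mainly drives sterol genes, averaged 375 ± 22.3, 361 ± 9.26, 369 ± 22.6 and 372 ± 24.5 CPM in the same order. SCAP averaged 136 ± 13.8, 127 ± 7.96, 136 ± 7.85 and 137 ± 6.71 CPM. For these 3 genes every group overlapped with Control, and log2 fold changes of both groups against Control lay between -0.090 and 0.020. These are mRNA levels, and the cleavage that activates SREBP was not measured. The ratio of INSIG1 to SREBF2 within a library was 0.587 ± 0.0157 in Control, 0.623 ± 0.0290 in LV-MEIS1, 0.975 ± 0.0399 in the HOXB13ko-labelled and 1.07 ± 0.0603 in the doubly labelled libraries.

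On the way to farnesyl diphosphate, HMGCS1, the synthase that makes HMG-CoA, was 233, 214 and 214 CPM in Control, 301, 299.6 and 278 in LV-MEIS1, 245, 257 and 262 in the HOXB13ko-labelled and 274, 266 and 257 in the doubly labelled libraries. LV-MEIS1 libraries were the highest and Control the lowest, and the remaining groups lay between and overlapped each other. The log2 fold change against Control was 0.41 ± 0.052 in LV-MEIS1 and 0.21 ± 0.052 with the label (eBayes adjusted p = 2.12e-05 and 0.00777). IDI1, the isopentenyl diphosphate isomerase, rose from 157 ± 1.66 CPM in Control to 189 ± 4.28 in LV-MEIS1 and 191 ± 4.62 with the label (adjusted p = 0.000148 and 0.000171). ACAT2, the cytosolic thiolase, and AACS, which activates acetoacetate, rose in LV-MEIS1 by 0.25 ± 0.052 and 0.28 ± 0.052 (adjusted p = 0.00146 and 0.00062), and gave 0.021 and 0.096 with the label, neither past the test. MVD, the mevalonate diphosphate decarboxylase, fell by 0.24 in LV-MEIS1 (adjusted p = 0.0205), a call lost without Control replicate 2 or 3 or LV-MEIS1 replicate 2 (adjusted p between 0.0727 and 0.0976). The kinases MVK and PMVK passed no test in any contrast, and FDPS, the farnesyl diphosphate synthase, averaged 390.1 ± 20.8 CPM in Control and 392 ± 4.12 in LV-MEIS1. FDPS and HSD17B7 are known to have near-identical pseudogene copies among which reads could be split, so their values are uncertain.

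From squalene onward, SQLE, the epoxidase that adds the first oxygen, moved most in LV-MEIS1 against Control. It was 52.4, 58.0 and 54.2 CPM in Control, 95.7, 98.0 and 92.3 in LV-MEIS1, 71.0, 64.9 and 66.9 in the HOXB13ko-labelled and 62.9, 66.4 and 66.9 in the doubly labelled libraries. LV-MEIS1 libraries were the highest and Control the lowest, with the other groups between them and overlapping. Against Control, LV-MEIS1 differed by 0.79 ± 0.056 on the log2 scale, or 1.74-fold (treat adjusted p = 0.0295), a treat call lost without Control replicate 1 or 3 or LV-MEIS1 replicate 1 or 2 (adjusted p between 0.0917 and 0.137), while the eBayes call held (adjusted p = 4.39e-08). With the label SQLE rose by 0.30 ± 0.056 (eBayes adjusted p = 0.00119). LSS, which closes the sterol rings in the next step, averaged 182 ± 16.0 CPM in Control and 193 ± 11.1 in LV-MEIS1 and passed no test, and the ratio of SQLE to LSS within libraries was 0.302 ± 0.0173 in Control and 0.497 ± 0.0437 in LV-MEIS1.

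Of the later sterol enzymes, CYP51A1, the lanosterol demethylase, was 349.7, 328 and 332 CPM in Control, 425, 430.2 and 407 in LV-MEIS1 and 402, 394 and 399 in the HOXB13ko-labelled libraries, and rose by 0.32 ± 0.045 and 0.24 ± 0.045 (eBayes adjusted p = 5.42e-05 and 0.00116). MSMO1, the methylsterol oxidase, rose by 0.34 ± 0.058 and 0.31 ± 0.058 (adjusted p = 0.000285 and 0.00134), and SC5D, a sterol desaturase, by 0.37 ± 0.067 and 0.25 ± 0.067 (adjusted p = 0.00051 and 0.0115). TM7SF2, a sterol reductase, was 51.9, 65.1 and 56.4 CPM in Control and 67.2, 59.9 and 69.8 in LV-MEIS1, which overlapped, and 48.2, 42.1 and 39.0 in the HOXB13ko-labelled libraries, all below Control (-0.42 ± 0.094, adjusted p = 0.00417). DHCR7, a reductase of the final steps, was 177, 204 and 177 CPM in Control, 177, 155 and 175 in LV-MEIS1 and 202, 190.2 and 175 in the HOXB13ko-labelled libraries, and these groups overlapped. Of the remaining sterol genes, FDFT1, the squalene synthase, averaged 264 ± 13.9 CPM in Control, 265 ± 7.29 in LV-MEIS1 and 276 ± 11.7 with the label. HSD17B7, a sterol ketoreductase, rose by 0.30 ± 0.086 with the label (adjusted p = 0.0168), and NSDHL, a sterol dehydrogenase, averaged 26.2 ± 1.14 CPM in LV-MEIS1 and 32.2 ± 1.48 in the doubly labelled libraries (0.29 ± 0.076, adjusted p = 0.00540). EBP, a sterol isomerase, was 1 of 10 members past no test in any of the 5 contrasts, with ACACA, ACACB, FASN, LSS, MVK, PMVK, SCAP, SREBF1 and SREBF2.

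SCD, the desaturase that makes oleate from stearate, lies on chromosome 10 (100347233 to 100364826, plus strand). It was 729, 748 and 714 CPM in Control, 1639, 1655 and 1614 in LV-MEIS1, 869, 874 and 848 in the HOXB13ko-labelled and 933, 1000.2 and 989.7 in the doubly labelled libraries. No groups overlapped, and the order from low to high was Control, HOXB13ko-labelled, doubly labelled and LV-MEIS1. SCD rose by 1.16 ± 0.046 on the log2 scale in LV-MEIS1, or 2.24-fold (treat adjusted p = 2.73e-07), and 0.24 ± 0.046 with the label (eBayes adjusted p = 0.00137). Between both lines with exogenous MEIS1 it was -0.75 ± 0.046, lower with the label (treat adjusted p = 0.0251), a call lost without LV-MEIS1 replicate 1, 2 or 3 or HOXB13ko-LV-MEIS1 replicate 1 (adjusted p between 0.0521 and 0.132).

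FADS2, a desaturase that starts the making of long polyunsaturated fatty acids (chromosome 11, 61792980 to 61867354, plus strand), was 141, 165 and 145 CPM in Control, 86.0, 80.9 and 86.5 in LV-MEIS1, 227, 213 and 202 in the HOXB13ko-labelled and 218, 241 and 248 in the doubly labelled libraries. LV-MEIS1 libraries were the lowest, Control came next, and the groups with the knockout label were the highest and overlapped. In LV-MEIS1 the log2 fold change was -0.82 ± 0.068 (treat adjusted p = 0.0423), a treat call lost without Control replicate 2 or 3, any LV-MEIS1 replicate, HOXB13ko replicate 2 or HOXB13ko-LV-MEIS1 replicate 2 (adjusted p between 0.0573 and 0.221), while the eBayes call held (adjusted p = 2.60e-07). FADS2 rose by 0.51 ± 0.068 with the label (eBayes adjusted p = 7.89e-05), and between both lines with exogenous MEIS1 it was 2.79-fold higher with it (1.47 ± 0.068, treat adjusted p = 1.26e-07).

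FADS1, the neighbouring desaturase of the same pathway, was 187, 194 and 183 CPM in Control and 190.4, 179 and 180.3 in LV-MEIS1, which overlapped, and rose to 228, 216 and 218 CPM with the label (0.23 ± 0.047, eBayes adjusted p = 0.00220). The span of FADS1 (61799627 to 61829318, minus strand) overlaps that of FADS2 on the opposite strand. Reads were assigned to transcripts without use of strand, so only reads from transcript sequence that both genes share could be confused. How many such reads there were was not measured. The ratio of FADS2 to FADS1 within a library was 0.799 ± 0.0511 in Control, 0.461 ± 0.0162 in LV-MEIS1, 0.970 ± 0.0362 in the HOXB13ko-labelled and 0.995 ± 0.0318 in the doubly labelled libraries. The ratio of SCD to FADS2 was 4.88 ± 0.331, 19.4 ± 0.950, 4.04 ± 0.192 and 4.15 ± 0.146 in that order. Neither ratio depends on library scaling, and for both the LV-MEIS1 libraries lay outside the range of the other 9.

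**Figure D3:**
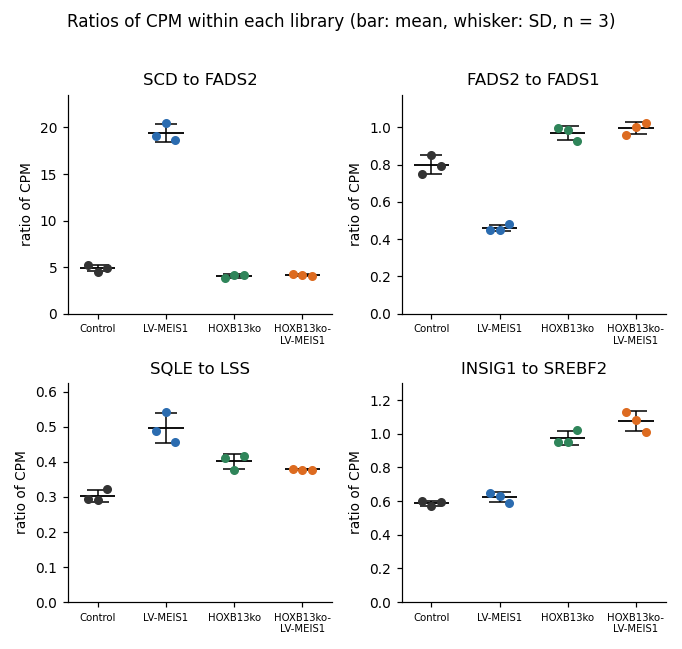
Ratio of the CPM of a pair of genes within each library (y axes, from 0) by group (x axes), with points for the 3 replicates, horizontal bars for the mean and whiskers for the SD. SCD to FADS2 averages 19.4 in LV-MEIS1 and 4.88 in Control, and INSIG1 to SREBF2 is higher in both groups with the HOXB13ko label.

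Of the other fatty acid genes, ELOVL6, which elongates palmitate, was 147, 135 and 143 CPM in Control, 157, 157 and 152 in LV-MEIS1, 205, 209.9 and 212 in the HOXB13ko-labelled and 226, 229 and 222 in the doubly labelled libraries, and no groups overlapped. It rose by 0.56 ± 0.045 with the label (eBayes adjusted p = 5.03e-07) and by 0.13 ± 0.045 in LV-MEIS1 (adjusted p = 0.0266), the latter call lost without Control replicate 2 or 3 or LV-MEIS1 replicate 1 or 2 (adjusted p between 0.0516 and 0.115). ELOVL5, an elongase of polyunsaturated chains, rose by 0.18 ± 0.047 in LV-MEIS1 (adjusted p = 0.00742). ACSS2, which makes acetyl-CoA from acetate, fell by 0.20 there (adjusted p = 0.0215), a call lost without Control replicate 2 or 3 or LV-MEIS1 replicate 1 or 3 (adjusted p between 0.0589 and 0.104).

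The enzymes that commit carbon to fatty acids gave no call in LV-MEIS1. FASN, the synthase that builds palmitate, was 1468, 1729 and 1465 CPM in Control, 1354, 1417 and 1550.3 in LV-MEIS1, 1802, 1843 and 1673 in the HOXB13ko-labelled and 1549, 1501 and 1622 in the doubly labelled libraries, and its 95% interval in LV-MEIS1 against Control ran from -0.26 to 0.049 on the log2 scale. ACACA, an acetyl-CoA carboxylase, was 212, 204 and 185 CPM in Control and 176, 213 and 203 in LV-MEIS1, and its relative ACACB averaged 38.2 ± 2.15 and 33.5 ± 1.82 CPM. FASN, ACACA and ACACB passed no test in any contrast. ACLY, which cleaves citrate to acetyl-CoA, was 528, 521 and 480.4 CPM in Control, 552, 529 and 536 in LV-MEIS1 and 632, 615 and 597 in the HOXB13ko-labelled libraries, where it rose by 0.27 ± 0.050 (eBayes adjusted p = 0.00106). ACSL3, an acyl-CoA synthetase, averaged 142 ± 8.67 CPM in Control and 141 ± 1.93 in LV-MEIS1. The ratio of SCD to FASN within libraries was 0.472 ± 0.0345 in Control and 1.14 ± 0.0879 in LV-MEIS1.

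HOXB13ko-LV-MEIS1 against HOXB13ko puts the same question of exogenous MEIS1 to the edited cells, and no synthesis gene passed a test. Limma treat and eBayes each called 0 of 36 members, where 0.00717% and 0.0502% of all genes were called. At an unadjusted p under 0.05 limma treat passed 0 members and eBayes 9, 7 higher and 2 lower. Over all 13951 genes the same unadjusted tests passed 9 by treat and 2070 by eBayes. The groups did not overlap for 8 members, 6 higher and 2 lower with MEIS1, where this held for 21.1% of all genes. The largest log2 differences were -0.20 ± 0.078 for ACACA, -0.19 ± 0.073 for FASN, 0.17 ± 0.046 for SCD, 0.15 ± 0.045 for INSIG1, 0.14 ± 0.068 for FADS2 and 0.13 ± 0.052 for ACAT2, and the lowest adjusted p of a member was 0.151. The 95% intervals of all 36 members lay between -0.36 and 0.28, inside a 1.5-fold change in either direction.

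Whether the MEIS1 effects differed between backgrounds was tested directly, as the log2 fold change of LV-MEIS1 against Control minus that of HOXB13ko-LV-MEIS1 against HOXB13ko. The difference was largest for SCD, on the positive side, and for FADS2, on the negative side. Treat called SCD (0.99 ± 0.065, adjusted p = 0.000772) and FADS2 (-0.96 ± 0.096, adjusted p = 0.0298), 2 of 36 members, where 2.93% of all genes were called. The SCD call held with each library left out, and that of FADS2 was lost without Control replicate 2 or replicate 2 or 3 of any other group (adjusted p between 0.0507 and 0.0866). By eBayes 8 members had a positive and 2 a negative difference, where 18% and 16.2% of all genes did. SQLE gave 0.84 ± 0.079 (eBayes adjusted p = 2.25e-06, treat 0.0874), and STARD4, HMGCS1, AACS, SC5D, MSMO1 and CYP51A1 gave 0.35, 0.35, 0.34, 0.30, 0.23 and 0.21, against -0.27 for ACSS2, while INSIG2 gave 0.36 ± 0.17 and did not pass. Of these 10 calls 6 held with each library left out. ACSS2 was lost without any library but Control replicate 1 or HOXB13ko replicate 1 (adjusted p between 0.0502 and 0.0951), and CYP51A1 without LV-MEIS1 or HOXB13ko-LV-MEIS1 replicate 2 (0.0501 and 0.0578). MSMO1 and SC5D were each lost without 7 libraries, Control replicates 2 and 3 among them (adjusted p between 0.0508 and 0.1 and between 0.0535 and 0.0693). MEIS1 mRNA differed between the carrying lines, as given above, and its part in these differences was not tested.

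**Figure D4:**
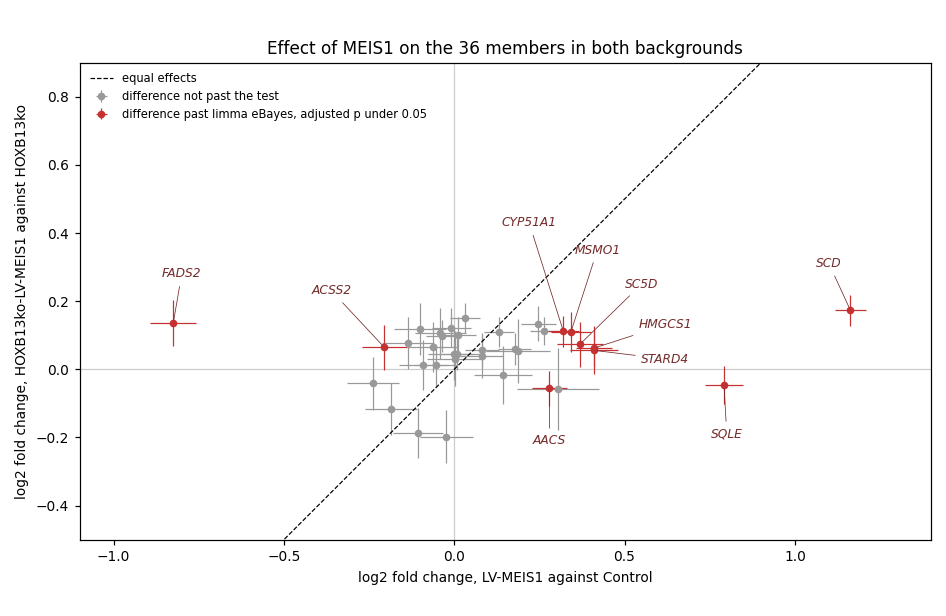
Log2 fold change of each of the 36 members with exogenous MEIS1 in cells without the HOXB13ko label (x axis) and with it (y axis), with whiskers for the SE a dashed line of equal effects and red for the 10 members whose effects differed by limma eBayes; these contrasts share no library. SCD and SQLE lie to the right, at 1.16 and 0.79, FADS2 to the left, at -0.82, and on the y axis no member passed a test.

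HOXB13ko-LV-MEIS1 against LV-MEIS1 compares the label between lines that both carry exogenous MEIS1. Treat called FADS2 and INSIG1 higher and SCD lower, 3 of 36 members, where 6.71% of all genes were called, and the calls of FADS2 and INSIG1 held with each library left out. By eBayes 14 members were higher and 6 lower, where 24% and 26.1% of all genes were. That split was 9 to 8 after quantile normalization and 10 to 7 with libraries scaled to equal sums. Besides SCD, lower members were TM7SF2 (-0.55 ± 0.094), SQLE (-0.54 ± 0.056), AACS (-0.24 ± 0.052), ELOVL5 (-0.17 ± 0.047) and HMGCS1 (-0.14 ± 0.052). Of 11 fatty acid genes 6 were higher, among them ELOVL6 (0.54 ± 0.045), FADS1 (0.37 ± 0.047), ACLY (0.25 ± 0.050) and ACSL3 (0.24 ± 0.057). With each library left out 13 of the 20 calls held. Those of MVD and DHCR7 were lost without LV-MEIS1 replicate 2 (adjusted p = 0.152 and 0.0823) or HOXB13ko-LV-MEIS1 replicate 3 (0.144 and 0.0825), MVD also without HOXB13ko-LV-MEIS1 replicate 2, that of HMGCS1 without 5 libraries including both (adjusted p between 0.0535 and 0.130), FDFT1 without replicate 2 or 3 of either group (between 0.0587 and 0.0896), FDPS without replicate 2 of either (0.0664 and 0.0716), ACSS2 without LV-MEIS1 replicate 3 or HOXB13ko-LV-MEIS1 replicate 2 (0.0528 and 0.0557) and IDI1 without LV-MEIS1 replicate 3 (0.0645).

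Neighbouring lipid pathways were read from 7 further lists, named in LV-MEIS1 against Control by the genes highest and lowest in each. Their counts are read against the 44.5% of all genes past limma eBayes in that contrast and the 32.9% in HOXB13ko against Control. With each library left out in turn, 14 of their 27 calls held in LV-MEIS1 against Control and 15 of 23 in HOXB13ko against Control. Of the 9 listed other acyl-CoA synthetases and elongases 3 rose and 3 fell there by eBayes, 2 of them past treat. ELOVL2, an elongase of long polyunsaturated chains, was 16.1, 14.8 and 16.6 CPM in Control, 2.38, 3.98 and 2.78 in LV-MEIS1, 16.5, 15.7 and 17.8 in the HOXB13ko-labelled and 17.3, 18.9 and 17.0 in the doubly labelled libraries. All LV-MEIS1 libraries lay below the other 9 (-2.23 ± 0.13 against Control, 5.19-fold lower by the ratio of mean CPM, treat adjusted p = 2.73e-07). ACSL1, which activates long-chain fatty acids, was 33.4, 34.9 and 33.9 CPM in Control, 15.8, 14.4 and 13.0 in LV-MEIS1, 41.1, 40.8 and 40.1 in the HOXB13ko-labelled and 41.6, 44.2 and 45.5 in the doubly labelled libraries. It was lowest in LV-MEIS1, without overlap (-1.22 ± 0.070, 2.37-fold lower by the same ratio, treat adjusted p = 9.96e-06). The MEIS1 effects differed between backgrounds past treat, by -2.32 ± 0.18 for ELOVL2 and -1.32 ± 0.099 for ACSL1 (adjusted p = 1.45e-05 and 0.000127), and both genes were higher in the doubly labelled libraries than in LV-MEIS1 (2.39 ± 0.13 and 1.58 ± 0.070, treat adjusted p = 6.23e-08 and 4.53e-08). ELOVL7 and HSD17B12, which act in chain elongation, rose in LV-MEIS1 by 0.53 ± 0.081 and 0.29 ± 0.061 (eBayes adjusted p = 0.000105 and 0.00145).

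Of the 8 glycerolipid genes 3 rose and 0 fell in LV-MEIS1, and 1 rose and 2 fell with the HOXB13ko label. DGAT2, which makes triglyceride, was 15.4, 17.5 and 17.0 CPM in Control, 14.7, 15.3 and 15.7 in LV-MEIS1, 31.0, 29.6 and 25.7 in the HOXB13ko-labelled and 29.4, 31.5 and 33.1 in the doubly labelled libraries. Both groups with the label lay above both without it (0.77 ± 0.082 without MEIS1, eBayes adjusted p = 1.00e-05, and 1.02 ± 0.082 with it, treat adjusted p = 0.00130). AGPAT2, which makes phosphatidic acid, was 26.5, 31.3 and 25.0 CPM in Control, 39.8, 34.2 and 36.7 in LV-MEIS1, 18.1, 17.2 and 15.7 in the HOXB13ko-labelled and 16.0, 16.2 and 20.5 in the doubly labelled libraries. It was highest in LV-MEIS1 and lowest in the groups with the label (0.42 ± 0.11 in LV-MEIS1, eBayes adjusted p = 0.00549, -0.68 ± 0.11 with the label, eBayes adjusted p = 0.000299, and -1.06 ± 0.11 between both MEIS1 lines, treat adjusted p = 0.00510). In LV-MEIS1 against Control LPIN2 gave 0.59 ± 0.089 (eBayes adjusted p = 0.000106), while DGAT1 and DGAT2 gave -0.14 and -0.12, neither past the test.

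**Figure D5:**
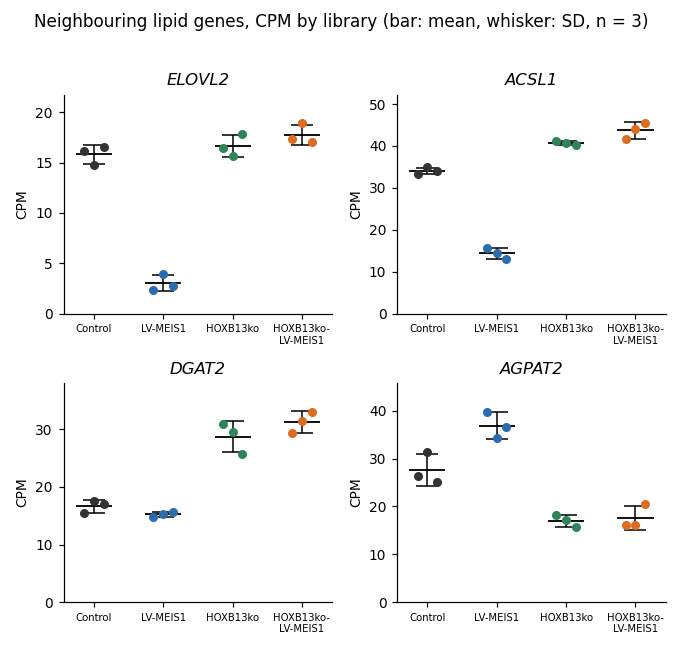
CPM of genes of neighbouring lipid pathways (y axes, from 0) in each library by group (x axes), with points for the 3 replicates, horizontal bars for the mean and whiskers for the SD. ELOVL2 and ACSL1 are lowest in LV-MEIS1, and DGAT2 is higher and AGPAT2 lower in both groups with the HOXB13ko label than in Control.

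The other lists held no gene past treat. Of 10 genes of SREBP release and sterol transport 6 rose and 0 fell in LV-MEIS1, among them MYLIP, a ubiquitin ligase (0.68 ± 0.097), and NPC1, a lysosomal cholesterol transporter (0.30 ± 0.085), while ERLIN1 and TMEM97 gave -0.088 and -0.086, neither past the test, and with the label 4 rose and 1 fell. Of 4 listed genes of LXR, efflux and esterification 1 rose and 0 fell in LV-MEIS1 and 2 rose and 0 fell with the label. SOAT1 of that list, which esterifies cholesterol, was 85.9, 77.1 and 77.2 CPM in Control, 105, 119.5 and 113 in LV-MEIS1 and 118, 125 and 119 with the label (0.49 ± 0.058 and 0.59 ± 0.058, eBayes adjusted p = 1.06e-05 and 4.72e-06), and ABCG1, NR1H2 and NR1H3 gave 0.32, 0.019 and -0.053 in LV-MEIS1, none past the test. Of 9 isoprenoid genes 1 rose and 3 fell in LV-MEIS1 (GGPS1 0.18 ± 0.054, PDSS1 -0.37 ± 0.075, FNTB -0.24 ± 0.071), COQ2 gave 0.071 without passing, and with the label 2 rose and 0 fell. Of 8 genes of NADPH and citrate supply 2 rose and 2 fell in LV-MEIS1 (ME1 0.34 ± 0.11, IDH1 0.15 ± 0.045, TKT -0.30 ± 0.071, CS -0.13 ± 0.046) and 2 rose and 4 fell with the label. Of 10 oxidation genes 2 rose and 1 fell in LV-MEIS1 (ECI1 -0.25 ± 0.096), ACAA2 and CPT1A gave 0.24 and -0.050 without passing, and with the label 0 rose and 1 fell. Of the 6 risers of SREBP release and transport in LV-MEIS1, 3 were left without Control replicate 3 or LV-MEIS1 replicate 1, with MBTPS2 and NPC2 among those lost. With the label, 1 of the 4 (MBTPS2) was left without Control replicate 2 or HOXB13ko replicate 3. There MYLIP was lost (adjusted p = 0.0607 and 0.0629), as were ERLIN1, lost without 6 libraries in all, and MBTPS1, lost without any 1 of the 12 (adjusted p up to 0.132 and 0.137). Also with the label, ABCG1, GGPS1, ME1, TKT and ELOVL1 each lost their call without 2 to 5 single libraries, and in LV-MEIS1 HADHB, GPAM and HACD3 without 2 to 4. NUS1 was lost there without LV-MEIS1 replicate 3, which with FNTB left 1 of the 3 isoprenoid genes that fell. In LV-MEIS1 the calls of CS and ECI1 were lost without 6 and 7 libraries, each without Control replicate 2 and LV-MEIS1 replicates 2 and 3 (adjusted p up to 0.134 and 0.216). Those of ME1, FNTB and GGPS1 were lost without Control replicate 2 (0.118, 0.0541 and 0.0687), ME1 also without LV-MEIS1 replicate 1 or 2, FNTB without LV-MEIS1 replicate 3 and GGPS1 without LV-MEIS1 replicate 1, and that of NPC1 without LV-MEIS1 replicate 3 (0.0551). None of the 7 lists had a gene past limma eBayes in HOXB13ko-LV-MEIS1 against HOXB13ko.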

How the data were processed

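RNA was sequenced from 12 libraries of CWR22Rv1 cells (4 groups of 3 replicates; stranded mRNA kit, single reads of 50 bases). The deposited CPM values were made by the authors: reads were called with CASAVA 1.8, trimmed with Trimmomatic 0.38, assigned to Ensembl GRCh38 transcripts with kallisto 0.43.1, summed to genes, filtered for low counts and scaled with edgeR 3.22.2. Strand was not used in counting. From these files 42 repeated rows of 13993 were dropped, which left 13951 genes. The values are not raw counts, so log2(CPM + 0.5) was fitted with limma 3.58.1 (R 4.3.3) as group means over all 12 libraries with no block; whole reads could not be recovered, since 39.9% to 54.6% of values under 1 CPM were near whole multiples. A fold change on this scale understates that of low genes. Treat tested against a 1.5-fold change and eBayes against no change, with Benjamini-Hochberg adjustment over all genes and a threshold of 0.05. Depth estimated from the steps between low values was 17150000 to 28650000 reads per library, so that 3 reads were worth 0.105 to 0.175 CPM. Python 3.11.15 with matplotlib 3.10.9 made the plots, and the fit was tested on simulated data.

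Genes were named by rule: a panel of 16 members, each member called by treat or among the 6 largest changes of a contrast, companion genes called by treat or at the extremes of their list in LV-MEIS1 against Control, and MEIS1 and HOXB13 as label checks. Other members were named after their values were seen, and 1 companion gene that the rule names is not reported here. The members and lists were chosen with earlier results of these data known. Replicate numbers did not pair the samples (same-number correlations -0.207 to 0.145, of 18 pairs 2 over 0.1). Alternatives were other scalings, pseudocounts of 0.1 and 1, a filter on low values, only the libraries compared, a replicate block, a threshold of 0.01 and leaving out each library. Positions are from GENCODE and promoter windows from RefSeq (GRCh38.p14).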

Additional observations from a re-analysis of the deposited data

Results flagged for a closer look

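The MEIS1 effect differed between cells without and with the HOXB13ko label for 10 members, by the direct test of the difference (LV-MEIS1 minus Control, less HOXB13ko-LV-MEIS1 minus HOXB13ko, log2 scale, limma eBayes adjusted p under 0.05). These are 27.8% of the 36 members, below the 34.2% of all genes past the same test. The difference was 0.99 for SCD, 0.84 for SQLE, 0.35 for STARD4, 0.35 for HMGCS1, 0.34 for AACS, 0.30 for SC5D, 0.23 for MSMO1 and 0.21 for CYP51A1. It was -0.96 for FADS2 and -0.27 for ACSS2. HOXB13 mRNA was above the Control level in libraries with the HOXB13ko label, MEIS1 mRNA was lower in HOXB13ko-LV-MEIS1 than in LV-MEIS1, and the part of either in these differences was not tested.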

How the results depend on the processing

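Among members called by treat or with the 6 largest changes of a contrast, no called value changed sign under any alternative that was run. The signs of other calls were followed only with each library left out, and none changed there. Members past treat in LV-MEIS1 against Control numbered 3, and 1 with the replicate block, with only the libraries compared or at an adjusted p under 0.01. For the difference of the MEIS1 effects they numbered 2, and 1 with the replicate block or at 0.01. At 0.01 the eBayes counts went from 20 to 13 in HOXB13ko-LV-MEIS1 against LV-MEIS1 and from 10 to 5 for the difference. The median log2 fold change of the fatty acid members in HOXB13ko-LV-MEIS1 against LV-MEIS1 went from 0.21 to 0.17 with equal sums, and for the difference from 0.023 to 0.062 with equal sums and 0.080 with quantile normalization. That of the sterol members in HOXB13ko-LV-MEIS1 against LV-MEIS1 went from 0.035 to -0.038 with quantile normalization. The causes of these changes were not tested. With each library left out, treat counts ran from 1 to 3 in LV-MEIS1 against Control and from 1 to 2 for the difference, and its eBayes count from 6 to 11. Fatty acid medians ran from -0.055 to 0.019 in LV-MEIS1 against Control, 0.15 to 0.25 in HOXB13ko against Control, 0.058 to 0.094 in HOXB13ko-LV-MEIS1 against HOXB13ko and -0.019 to 0.040 for the difference, and sterol medians from 0.11 to 0.17, 0.039 to 0.11, 0.038 to 0.090 and 0.051 to 0.13 in the same order, and from 0.011 to 0.057 in HOXB13ko-LV-MEIS1 against LV-MEIS1. SCD was past treat in 20 of 20 settings of LV-MEIS1 against Control, SQLE in 14 and FADS2 in 11. The replicate numbers share no origin in the labels, and 0 of 12 libraries correlated best with their own number. The fit with only the libraries compared could not be made for the difference, which uses all 12.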
